A study of Mus musculus with 20 samples.

Results

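Hepatocyte identity transcription factors are followed here as 9 genes, namely Hnf4a, Foxa1, Foxa2, Foxa3, Cebpa, Ppara, Nr1h4, Nr1i3 and Nr5a2. They were taken by symbol from a table of 22180 named genes. Each was read by 1 probe set that was annotated to that gene alone. RNA of 20 livers, each from an adult male of a C57BL/6 x CBA cross, was measured on 1 whole-transcript array per mouse. Of these mice, 10 were WT and 10 were heterozygous for a gene trap in Bnc2 (Bnc2+/-), so that heterozygous mice kept 1 intact allele in every cell. All 20 mice, WT littermates included, had spent 7.5 weeks on CDAA-HFSC, a diet short of choline, with amino acids in place of protein and rich in fat, sucrose and cholesterol, which provokes steatohepatitis and fibrosis. Livers of mice on standard chow were not analysed here, so every level below is that of a liver under this diet.

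Hepatocytes owe their identity to a small network of transcription factors that bind each other's genes and the same enhancers. The FOXA factors open chromatin as pioneers, HNF4A and C/EBP alpha hold the liver programme of secreted proteins and metabolic enzymes in place, and nuclear receptors tune it to the metabolic state. Among those receptors, PPAR alpha (Ppara) answers fatty acids during fasting, FXR (Nr1h4) answers bile acids, CAR (Nr1i3) answers foreign compounds and bilirubin, and LRH-1 (Nr5a2) drives bile acid and cholesterol genes. BNC2, the protein encoded by the trapped gene, is a zinc finger factor studied in myofibroblasts, the matrix-producing cells of fibrotic liver. The comparison therefore asks whether the factors that define another cell type, the hepatocyte, differed when Bnc2 was reduced.

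The 20 arrays had medians of 6.62 to 6.71 (log2) and correlated pairwise at 0.987 to 0.994 over genes. All 12 hepatocyte markers that were looked up were measured, and their mean per liver ran from 18.74 to 18.84 on the log2 scale, with 2 of the 12 at the upper limit of the table. The 4 measured markers of exocrine pancreas, a neighbouring tissue, averaged 5.04 to 6.05 per liver, below the 95th percentile of olfactory receptor genes (6.99), which serves as a background level. All 9 factors were above that level in every mouse, the lowest single value being 8.29. Bnc2 itself had a WT mean of 5.37 and a heterozygous mean of 5.41 (log2, SD 0.25 and 0.13, n = 10 each; limma p = 0.663), below that background level, so the array did not check the genotype labels. In liver tissue, fewer hepatocytes and less RNA per hepatocyte cannot be told apart.

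None of the 9 factors differed between genotypes beyond the spread between mice. With limma, 0 of 9 factors passed an adjusted p of 0.05, as did 0 of 22180 genes (0%), the smallest adjusted p over all genes being 0.446. At an unadjusted p of 0.05, 0 of 9 factors were called, against 3.63% of all genes lower and 2.78% higher in heterozygous livers. Of the 9 factors, 6 had a higher and 3 a lower mean in heterozygous livers, and the adjusted p ran from 0.787 to 0.998. What the intervals still allow differed by gene, and the 9 are given below by role.

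**Figure D1:**
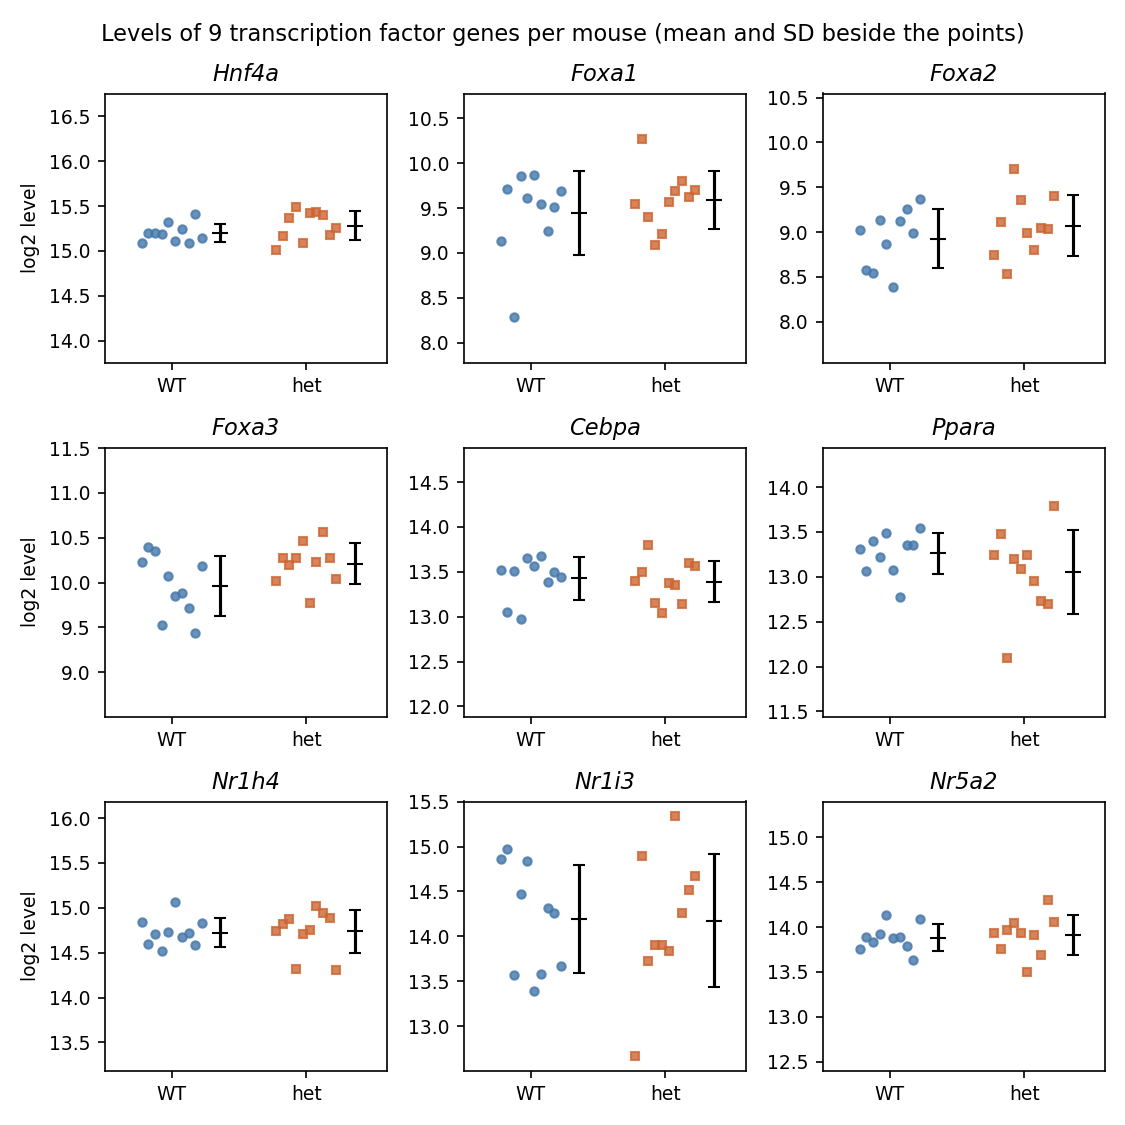
Log2 level of each of the 9 genes in each of 10 WT (circles) and 10 Bnc2 heterozygous (squares, het) livers, with the group mean and SD as a bar to the right of the points; points are spread sideways for legibility, and every panel spans 3 log2 units. Groups overlap in every panel, Nr1i3 spreads the most (12.67 to 15.34) and Hnf4a the least (15.02 to 15.49).

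Hnf4a, a nuclear receptor that holds the adult hepatocyte programme in place, was among the steadiest genes of these livers. It ranged from 15.08 to 15.41 in WT mice, with a median of 15.19, and from 15.02 to 15.49 in heterozygous mice, with a median of 15.31. The heterozygous level was 1.06 times that of WT (95% interval 0.960 to 1.17, limma adjusted p = 0.906). The groups overlapped over nearly the whole range, and 3 heterozygous mice lay above the highest WT mouse. Within genotypes its SD was 0.14 on the log2 scale, at percentile 9.96 of the SDs of 11090 genes at or above the median level, where the median SD was 0.22.

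The FOXA genes encode related forkhead proteins with a shared DNA motif, of which FOXA1 and FOXA2 open chromatin in the developing liver and FOXA3 is the form most associated with the adult organ. Foxa3 came closest to a difference. It ranged from 9.44 to 10.39 in WT mice, with a median of 9.98, and from 9.77 to 10.57 in heterozygous mice, with a median of 10.25. The heterozygous level was 1.19 times that of WT (95% interval 0.995 to 1.41, limma unadjusted p = 0.0569, adjusted p = 0.787, permutation p = 0.0709). Of the 10 heterozygous mice, 9 lay above the WT mean and 2 above the highest WT mouse, so the groups overlapped.

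Foxa1 ranged from 8.29 to 9.87 in WT mice, with a median of 9.58, and from 9.09 to 10.27 in heterozygous mice, with a median of 9.59. Its fold of 1.10 had an interval of 0.868 to 1.41 (limma adjusted p = 0.944). WT replicate 6, at 8.29, stood apart from the other WT mice, the nearest of which was at 9.13. Its array had the smallest interquartile range and the highest median of the 20. Without this mouse the difference fell from 0.14 to 0.015 on the log2 scale. Without heterozygous replicate 5, the highest liver, the difference was 0.068. Foxa2 ranged from 8.39 to 9.37 in WT mice, with a median of 9.01, and from 8.53 to 9.70 in heterozygous mice, with a median of 9.04. The Foxa2 fold of 1.11 had an interval of 0.904 to 1.35 (limma adjusted p = 0.927), and the groups overlapped. The difference of 0.15 on the log2 scale was 0.076 without heterozygous replicate 5 and 0.086 without WT replicate 7.

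Cebpa, which encodes a leucine zipper factor that drives gluconeogenic and urea cycle genes and restrains hepatocyte proliferation, had nearly equal group means. It ranged from 12.97 to 13.67 in WT mice, with a median of 13.50, and from 13.04 to 13.80 in heterozygous mice, with a median of 13.39. The heterozygous level was 0.976 times that of WT (95% interval 0.842 to 1.13, limma adjusted p = 0.985), and the ranges nearly coincided.

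Ppara, the receptor that induces fatty acid oxidation and ketogenesis, had the lowest mean fold of the 9. It ranged from 12.78 to 13.55 in WT mice, with a median of 13.33, and from 12.09 to 13.79 in heterozygous mice, with a median of 13.14. The heterozygous level was 0.866 times that of WT (95% interval 0.694 to 1.08, limma adjusted p = 0.885). The heterozygous group held both the lowest and the highest of the 20 livers, replicates 3 and 10, and only 2 of its 10 mice lay above the WT mean. Without heterozygous replicate 3 the difference was -0.102 in place of -0.21 on the log2 scale.

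Nr1i3 was the most variable of the factors, and its group means nearly coincided. It ranged from 13.40 to 14.97 in WT mice, with a median of 14.28, and from 12.67 to 15.34 in heterozygous mice, with a median of 14.08. The heterozygous level was 0.987 times that of WT, but the 95% interval ran from 0.666 to 1.46 (limma adjusted p = 0.998). A change by any factor between these bounds is thus still allowed by the values. The heterozygous values enclosed all WT values. The livers with the lowest and highest Nr1i3 differed 6.37-fold, and its SD within genotypes, 0.68 on the log2 scale, stood at percentile 97.8 of the genes at or above the median level.

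Nr1h4 and Nr5a2, the receptors tied to bile acids and cholesterol, were steadier. Nr1h4 ranged from 14.52 to 15.07 in WT mice, with a median of 14.71, and from 14.30 to 15.02 in heterozygous mice, with a median of 14.79. Its fold was 1.01 (95% interval 0.883 to 1.15, limma adjusted p = 0.996). Nr5a2 ranged from 13.64 to 14.13 in WT mice, with a median of 13.88, and from 13.50 to 14.30 in heterozygous mice, with a median of 13.93, a fold of 1.02 (95% interval 0.900 to 1.15, limma adjusted p = 0.988). Both groups overlapped for both genes. By SD within genotypes, Nr1h4 stood at percentile 42.8, Nr5a2 at 33.7, Cebpa at 56.5, Foxa3 at 73.0, Foxa2 at 82.2, Ppara at 86.2 and Foxa1 at 89.5.

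**Figure D2:**
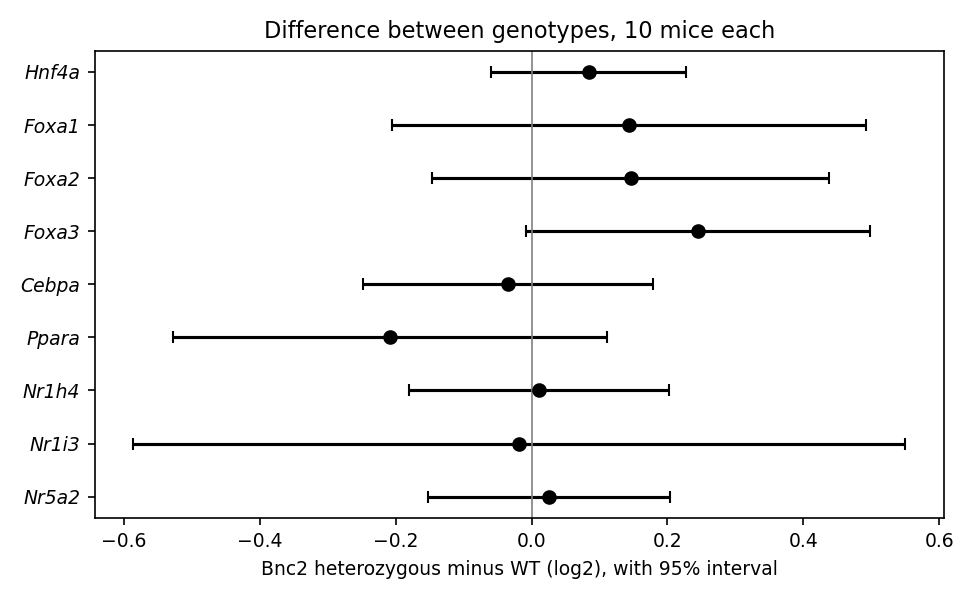
Difference of the means, heterozygous minus WT, on the log2 scale (points) with the 95% interval of the limma fit (bars) for each of the 9 genes, 10 mice per genotype; the vertical line marks no difference. Every interval includes 0, the Foxa3 interval only just (-0.01 to 0.50) and the Nr1i3 interval being the widest (-0.59 to 0.55).

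Target genes of the factors were not called between genotypes either. Of 26 measured target genes of PPAR alpha, 0 passed the adjusted threshold, 5 were lower at an unadjusted p of 0.05 (against 3.63% of all genes) and 0 were higher, and the median difference was -0.05 on the log2 scale against 0.00 over all genes. Angptl4, an inhibitor of lipoprotein lipase, had a fold of 0.704, Pex11a, which divides peroxisomes, of 0.747, Vnn1, a pantetheinase, of 0.746 and Slc22a5, the carnitine transporter, of 0.777 (limma adjusted p = 0.627, 0.712, 0.762 and 0.721). Of 18 targets of CAR, 2 were higher and 1 lower at an unadjusted p of 0.05, against 2.78% and 3.63% of all genes, and 1 of the higher ones, Cyp2b10, lay below the background level. Of 15 FOXA targets, 2 were higher and 1 lower at an unadjusted p of 0.05, against 2.78% and 3.63% of all genes. Folds were 1.28 for Abcb11, the bile salt export pump, and 1.23 for Slc2a2, the hepatic glucose transporter (limma adjusted p = 0.611 and 0.727). Pck1, an enzyme of gluconeogenesis, had a fold of 0.668 (limma adjusted p = 0.613). Of 18 targets of HNF4A, 2 were higher at an unadjusted p of 0.05 (against 2.78% of all genes) and 0 lower. These 2, Mttp and Otc, had folds of 1.12 and 1.15 (limma adjusted p = 0.716 and 0.734). The 12 genes that FXR induces, the 5 it represses and the 9 targets of LRH-1 held 1, 0 and 0 genes higher at an unadjusted p of 0.05, the first being Abcb11 again, and none lower. Of 15 targets of C/EBP alpha, 1 was lower, Pck1 again, and 0 were higher, against 3.63% and 2.78% of all genes.

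Among markers of other liver cells, none passed the adjusted threshold, but several had an unadjusted p under 0.05. Of 8 stellate cell and myofibroblast markers, 4 were lower in heterozygous livers at an unadjusted p of 0.05 (against 3.63% of all genes), and their mean per liver ran from 10.48 to 11.39 in WT and from 9.91 to 10.89 in heterozygous mice. The lowest fold in that list was that of Col1a1, a chain of the main scar collagen, 0.534 (limma adjusted p = 0.459). At the same unadjusted p, 4 of 6 lymphocyte markers were lower, with means of 7.95 to 8.93 and 7.43 to 8.46. So were 2 of 10 macrophage markers, with means of 12.53 to 13.25 and 11.91 to 13.19. Of the 12 hepatocyte markers, several of them compressed near the upper limit of the table, 0 were called in either direction, with means of 18.74 to 18.82 in WT and 18.78 to 18.84 in heterozygous mice. What part these cells have in the levels of the factors was not tested.

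Across mice, the factors did not rise and fall as 1 block. Levels were centred within each genotype, so that a genotype difference could add nothing, and the 36 pairs of factors were correlated over the 20 livers. Pearson's r was positive for 28 pairs and negative for 8, ran from -0.35 (Foxa3 with Nr1i3) to 0.87 (Ppara with Nr1i3), and had a median of 0.18. A permutation p under 0.05, not adjusted over the pairs, was reached by 7 pairs. How many pairs of other genes reach it was not computed, so the 7 are named only as the pairs of highest r. A pair was called only where limma, with genotype and 1 of the factors as terms over all other genes, gave an adjusted p under 0.05 whichever of the pair was the term, and 1 pair met this.

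**Figure D3:**
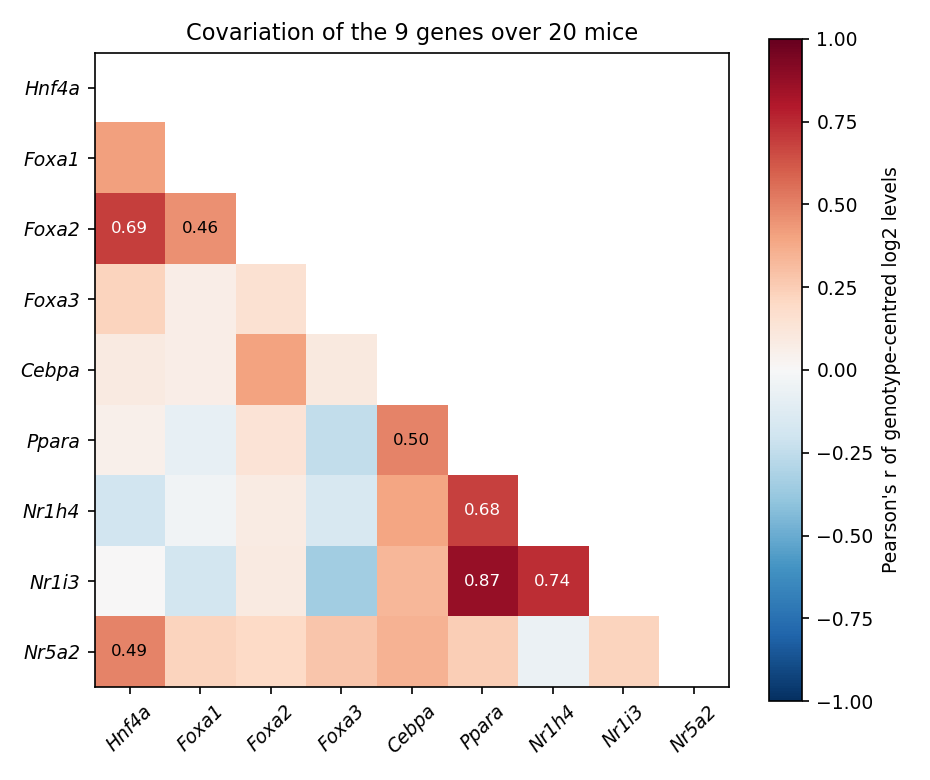
Pearson's r of genotype-centred log2 levels for each of the 36 pairs of genes over 20 livers, as colour from -1 (blue) to 1 (red), with r printed for the 7 pairs with a permutation p under 0.05. The darkest fields join Ppara, Nr1h4 and Nr1i3, and a separate dark field joins Hnf4a with Foxa2.

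That pair was Ppara with Nr1i3. Their r was 0.87 and Spearman's rho 0.87 over 20 mice (permutation p = 1e-05, the smallest that 100000 permutations can give, and 2e-05), and the larger limma adjusted p was 0.00118. The relation was present in each genotype, with r = 0.82 in WT and 0.92 in heterozygous mice, and a test of that difference by permuting genotypes gave p = 0.484. The lowest and the highest liver for both genes were heterozygous replicates 3 and 10, and without these 2 mice r was 0.75. In WT livers both receptors were low in replicates 1, 2 and 3, with Nr1i3 between 13.40 and 13.58 and Ppara between 12.78 and 13.07, and both were high in replicates 4 and 10, with Nr1i3 at 14.86 and 14.97 and Ppara at 13.49 and 13.55.

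Nr1h4 followed the same livers less closely. Its r was 0.74 with Nr1i3 (rho 0.70, permutation p = 0.00022 and 0.00079) and 0.68 with Ppara (rho 0.61, permutation p = 0.00286 and 0.00607). Neither pair was called, as the larger limma adjusted p was 0.104 with Nr1i3 and 0.144 with Ppara. Nr1h4 did pass in the fit with Nr1i3 as the term (limma adjusted p = 0.0369). Without the 2 livers farthest from the Nr1h4 median, heterozygous replicates 2 and 3, r with Nr1i3 was 0.63. Without the 2 farthest from the Ppara median, heterozygous replicates 3 and 10, r with Ppara was 0.50. These 2 values leave out different livers, and dropping the extremes of a gene also narrows its range. Without heterozygous replicate 1, whose Nr1h4 (14.88) was high beside its Ppara (12.70), both pairs were called (limma adjusted p = 0.0294 and 0.0459), which made 3 pairs in all.

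**Figure D4:**
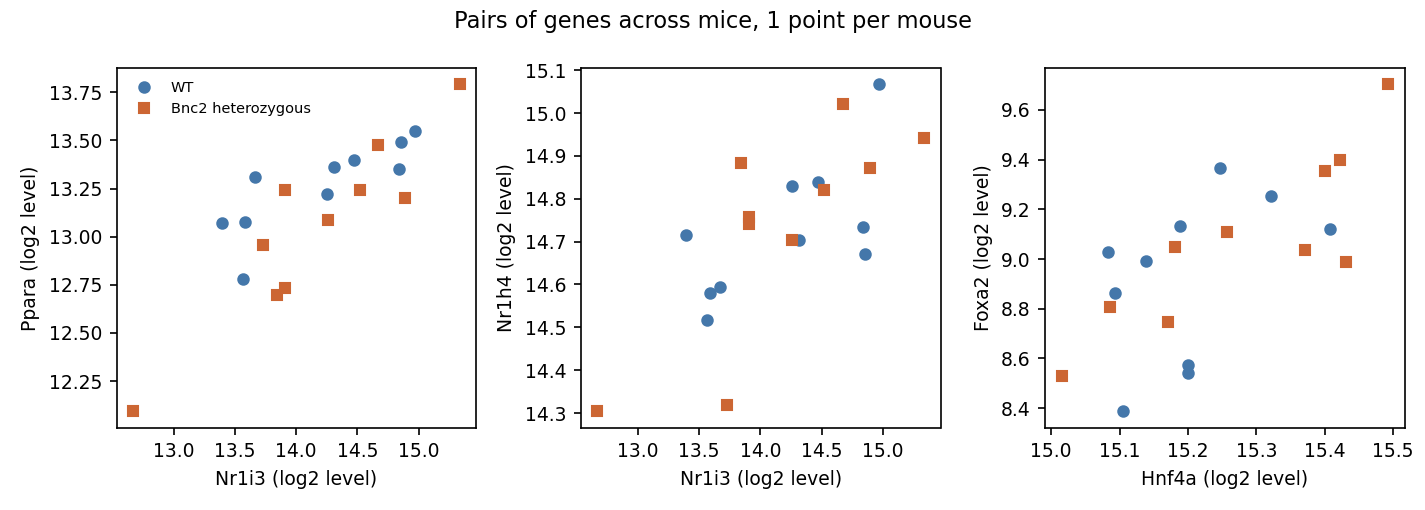
Log2 levels of 2 genes against each other in 20 livers, 1 point per mouse (circles WT, squares heterozygous), for Nr1i3 with Ppara (left), Nr1i3 with Nr1h4 (middle) and Hnf4a with Foxa2 (right). The left panel forms a band in both genotypes (r = 0.82 and 0.92), while in the right panel the WT points scatter (0.46) more than the heterozygous ones (0.85).

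Heterozygous replicate 3 was the lowest of the 20 livers for 4 of the 9 factors, Hnf4a, Ppara, Nr1h4 and Nr1i3, and next to lowest for Foxa1 and Foxa2. Heterozygous replicate 10, in contrast, was the highest for Ppara and Nr1i3 but among the 4 lowest for Foxa1 and Foxa3. Heterozygous replicate 5 was the highest for Hnf4a, Foxa1 and Foxa2 and near the middle for Ppara, Nr1h4 and Nr1i3.

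The promoters of Ppara, Nr1i3 and Nr1h4 are shown because the highest r among the pairs, 0.87 and 0.74, joined Nr1i3 with the other two. Each is the 250 bases before a start site annotated by RefSeq on the mouse GRCm38.p6 build, with matches to the searched motifs in capitals. Ppara lies on the plus strand at chr15:85735526-85735775, Nr1i3 on the plus strand at chr1:171213720-171213969 and Nr1h4 on the minus strand at chr10:89506659-89506908.
Ppara: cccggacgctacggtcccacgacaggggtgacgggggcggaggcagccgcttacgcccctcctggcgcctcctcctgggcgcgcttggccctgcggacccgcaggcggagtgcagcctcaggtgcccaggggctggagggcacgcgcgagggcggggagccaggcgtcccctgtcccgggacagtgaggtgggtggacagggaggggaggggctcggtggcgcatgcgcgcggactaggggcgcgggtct
Nr1i3: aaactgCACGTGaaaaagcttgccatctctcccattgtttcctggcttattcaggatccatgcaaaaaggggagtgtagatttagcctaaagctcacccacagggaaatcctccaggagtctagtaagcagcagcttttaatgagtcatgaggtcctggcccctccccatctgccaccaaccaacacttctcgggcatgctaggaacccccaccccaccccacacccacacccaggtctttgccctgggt
Nr1h4: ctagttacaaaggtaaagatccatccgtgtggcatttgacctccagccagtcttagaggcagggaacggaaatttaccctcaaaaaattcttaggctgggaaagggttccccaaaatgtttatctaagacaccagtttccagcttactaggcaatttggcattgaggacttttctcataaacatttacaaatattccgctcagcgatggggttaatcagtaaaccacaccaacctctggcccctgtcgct
The motifs searched on both strands were CAAAGTCCA (HNF4A), TGTTTAC and TATTTAC (FOXA), TTGCGCAA (C/EBP alpha), TCAAGGTCA (LRH-1), AGGTCA repeated in the same direction with 1 base between (PPAR alpha and HNF4A) or in the opposite direction with 1 base between (FXR) and, added after the data were seen, CACGTG (the E-box of the clock and of MYC). The Ppara window, of 76.4% GC, and the Nr1h4 window, of 44.4% GC, held none of them. In the Nr1i3 window a CACGTG began 244 bases before the start, a motif held by 6.04% of 32536 promoters. No motif was thus common to the 3 windows, and a match in letters does not show a bound site.

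Among pairs outside Ppara, Nr1h4 and Nr1i3, Hnf4a with Foxa2 had the highest r, 0.69 (rho 0.58, permutation p = 0.00102 and 0.00808). This pair was not called, since the limma adjusted p was 0.228 with Hnf4a as the term and 0.944 with Foxa2 as the term. Their r was 0.46 in WT and 0.85 in heterozygous mice, a difference with a permutation p of 0.0943. Hnf4a with Nr5a2 had r = 0.49 (rho 0.50), with 0.02 in WT mice and 0.69 in heterozygous mice. That was the only 1 of 36 pairs whose r differed between genotypes at an unadjusted permutation p of 0.05 (p = 0.0263), and 0 passed after adjustment over the 36 pairs (adjusted p = 0.919). Cebpa with Ppara had r = 0.50 and Foxa1 with Foxa2 had r = 0.46 (permutation p = 0.026 and 0.0431), neither called (larger limma adjusted p = 0.649 and 0.944). Without WT replicate 6, the liver with outlying Foxa1, the r of Foxa1 with Foxa2 was 0.70. Over all mice left out 1 at a time, the r of this pair ran from 0.33 to 0.70. The remaining 29 pairs had r between -0.35 and 0.41.

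The number of other genes that followed a factor differed widely. Of 22179 other genes, 157 (0.708%) rose and 159 (0.717%) fell with Ppara, and 193 (0.87%) rose and 184 (0.83%) fell with Nr1i3 (limma, adjusted p under 0.05). Against this background, 1 of the 8 other factors was called with Ppara, namely Nr1i3, and 2 of 8 were called with Nr1i3, namely Ppara and Nr1h4. These counts leaned on single livers, since 175 genes followed Ppara without heterozygous replicate 3 and 90 without replicate 10, and for Nr1i3 the counts were 112, 114, 235 and 234 without heterozygous replicates 3, 10 and 7 and WT replicate 4. With Foxa1 4 genes (0.018%) were called, with Cebpa 3 (0.0135%) and with Foxa3 1 (0.00451%). No gene (0%) was called with Hnf4a, Foxa2, Nr1h4 or Nr5a2, for which the smallest adjusted p was 0.074, 0.897, 0.0976 and 0.058. The calls with Foxa1, Foxa3 and Cebpa went to 0 without at least 1 single mouse each, and the count for Cebpa reached 37 without WT replicate 3. Without heterozygous replicate 1, 74 genes followed Nr1h4, and without WT replicate 1, 7 followed Hnf4a.

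The genes most like Nr1i3 over the 20 livers were Cbr4, a carbonyl reductase of mitochondrial fatty acid synthesis (r = 0.88), Cyp2c37, a cytochrome P450 (0.88), and Slc47a1, an exporter of organic cations (0.88), with limma adjusted p of 0.00172, 0.000535 and 0.00102. Cyp2c37 ran from 12.06 to 15.34. The genes most like Ppara were Cyp2e1, the ethanol-oxidising P450 of pericentral hepatocytes (r = 0.92), BC024386 (0.91) and Sephs2, which makes the selenium donor for selenoproteins (0.90). Of these BC024386 and Sephs2 passed (limma adjusted p = 0.000509 and 0.00274), whereas Cyp2e1 moved only between 19.68 and 19.92, just under the upper limit of the table, and did not (0.286). The genes most opposite to them, picked after their values were seen, were Cap1, an actin regulator (r = -0.88), and Golm1, a Golgi membrane protein (-0.86), for Nr1i3. For Ppara they were Arhgap11a, a GTPase-activating protein (-0.88), and Nusap1, a spindle protein (-0.88). All of these 4 passed, with limma adjusted p of 0.0172, 0.00102, 0.000612 and 0.000541.

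For Nr1h4 the closest genes were Sucla2, a subunit of succinyl-CoA synthetase (r = 0.81), Shmt1, the cytosolic serine hydroxymethyltransferase (0.81), and again Slc47a1 (0.80), none of which passed. Nr5a2 was most like Ptpn3, a tyrosine phosphatase (0.86), Mpst, a mercaptopyruvate sulfurtransferase (0.85), and Smoc1, a matricellular protein (0.84), with no call. Hnf4a was most like Ngly1, the cytosolic peptide N-glycanase (0.79), Cables1 (0.79) and Clcc1, a chloride channel of the endoplasmic reticulum (0.78). Its most opposite gene, seen afterwards, was Csf1r, the receptor of macrophage colony-stimulating factor (-0.78, limma adjusted p = 0.0977). Cables1 lay near the background level of 6.99, with a mean of 7.06 and a lowest value of 6.19.

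Among the FOXA genes, Foxa1 was most like Pigq, an enzyme of GPI anchor synthesis (r = 0.84), Tuft1 (0.84) and Ankle2, a nuclear envelope protein (0.83), of which Tuft1 passed (limma adjusted p = 0.0274). Foxa2 was most like Keap1, the adaptor that marks NRF2 for degradation (0.79), Exosc2, a subunit of the RNA exosome (0.77), and Ltbr, the lymphotoxin beta receptor (0.77), none called. The closest to Foxa3 were C4b, a complement component (0.84), Dusp5, an ERK phosphatase (0.81), and Xab2, a splicing and repair factor (0.80), with C4b called (limma adjusted p = 0.0193). Cebpa was most like Sh3bp5 (0.84), Slc22a30, an organic anion transporter (0.82), and Sec14l2, a lipid-binding protein (0.78), of which Slc22a30 passed (0.0359). The genes most opposite to Cebpa, again seen afterwards, were Mastl, a kinase of mitotic entry (-0.82, limma adjusted p = 0.0359), Aurka, a spindle kinase (-0.79, 0.0698), and Knstrn, a kinetochore protein (-0.78, 0.0976). The lowest values of Tuft1, Dusp5, Mastl, Aurka and Knstrn (6.66, 6.75, 6.88, 6.90 and 6.95) lay below the background level of 6.99.

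Known partners of the factors were read from a list of 46 other transcription factors and co-regulators, 42 of them measured. Between genotypes, 0 of the 42 passed the adjusted threshold. At an unadjusted p of 0.05, 2 were lower in heterozygous livers (against 3.63% of all genes) and 0 higher. These were Rxra and Creb3l3, with folds of 0.878 and 0.881 (limma adjusted p = 0.756 and 0.775). With Ppara, 2 of the 42 were called, Ppargc1a, the coactivator of mitochondrial and fasting genes (r = 0.76, limma adjusted p = 0.00876), and Klf15, a factor of amino acid use in fasting (0.72, 0.021), against 0.708% of all genes. The same 2 genes were called with Nr1i3 (0.75 and 0.67, limma adjusted p = 0.0121 and 0.0399). Nr1d2, a clock repressor, and Foxo3 had r of 0.67 each with Ppara and did not pass (0.0673 and 0.053). With the other 7 factors 0 of 42 were called. The highest values there among genes above the background level were 0.63 for Nr0b2, the repressor SHP, with Hnf4a and 0.68 for Prox1 with Nr1h4. Hnf4g, the paralogue of Hnf4a, had r = -0.75 with Hnf4a, and Foxm1, a proliferation factor, had -0.64 with Cebpa, but both averaged below the background level in each genotype (5.54 and 5.63 for Hnf4g, 6.15 and 6.17 for Foxm1), as did 7 of the 42 in all. The median r over the 42 was 0.06 with Ppara and 0.01 with Nr1i3, against 0.02 with either over all genes.

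Known target genes were then set against their own factor. Of 18 measured targets of CAR, 4 rose with Nr1i3 against 0.87% of all genes, and the median r was 0.38. They were the P450 genes Cyp2c37 (r = 0.88), Cyp2c54 (0.77), Cyp2b9 (0.71) and Cyp2c50 (0.71), with limma adjusted p of 0.000535, 0.00664, 0.0187 and 0.0217. Alas1, the first enzyme of haem synthesis, followed with 0.66 (0.051), and Cyp2b10, the classic CAR target, lay below the background level at 5.08 in WT and 5.43 in heterozygous livers. Without heterozygous replicate 3 the calls fell to 2. Genes of the Cyp2c family are close in sequence, and their probe sets may share signal, so the 3 named here are not independent readings. Of the 18, 3 had a negative r with Nr1i3, down to -0.57. With Ppara as the term 3 of the 18 were called, against 0.708% of all genes, with a median r of 0.43. With Nr1h4 as the term 0 were called, as were 0% of all genes, and the median r was 0.41. The covariation of this list was thus not particular to Nr1i3.

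Targets of PPAR alpha gave no call with Ppara. Of 26 measured, 0 passed, and the median r was 0.27 against 0.02 over all genes. The highest were Cyp4a31, a fatty acid hydroxylase (r = 0.56), Pex11a (0.55), Slc22a5 (0.53) and Acadm, a dehydrogenase of beta-oxidation (0.52), with limma adjusted p of 0.142, 0.167, 0.201 and 0.309. Pdk4, a brake on glucose oxidation, ran the other way (-0.52, 0.203). Genes of other lists were called with Ppara, namely 4 of 17 HNF4A, 3 of 15 C/EBP alpha and 2 of 15 FOXA targets. The share over all genes was 0.708%, and some genes sit in several lists. Named after their values were seen are Gys2, the liver glycogen synthase (0.81), and Otc, an enzyme of the urea cycle (0.76). Others were Tdo2, which degrades tryptophan (0.71), and Cyp8b1, the bile acid 12-alpha-hydroxylase (0.69).

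With Nr1h4, the 12 genes that FXR induces had a median r of -0.22 and the 5 that it represses a median of 0.47, and 0 of either were called. The high median of the repressed genes was not particular to Nr1h4. It was 0.57 with Nr1i3 (1 called, against 0.87% of all genes) and 0.48 with Ppara (2 called, against 0.708%). The induced genes had medians of -0.07 and -0.09 with these 2 factors. Among the induced genes were Fgg, Fga and Fgb, the 3 chains of fibrinogen, with r of -0.62, -0.46 and -0.44 (limma adjusted p = 0.262, 0.513 and 0.624). Among the repressed genes Cyp7a1, the rate-limiting enzyme of bile acid synthesis, had r = 0.71 and Cyp8b1 0.61 (0.126 and 0.213). The targets of HNF4A, C/EBP alpha and LRH-1 had median r of 0.04, 0.15 and 0.12 with their own factor, with 0 of 18, 15 and 9 called. The FOXA targets had medians of -0.02, 0.02 and -0.12 with Foxa1, Foxa2 and Foxa3 and no call. Of the 9 LRH-1 targets, 3 were instead called with Nr1i3 (against 0.87% of all genes), with a median r of 0.57. With Ppara 2 were called (against 0.708%), with a median of 0.48. Abcg5 and Abcg8, the paired sterol exporters, were among those called with Nr1i3 (r = 0.75 and 0.70).

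**Figure D5:**
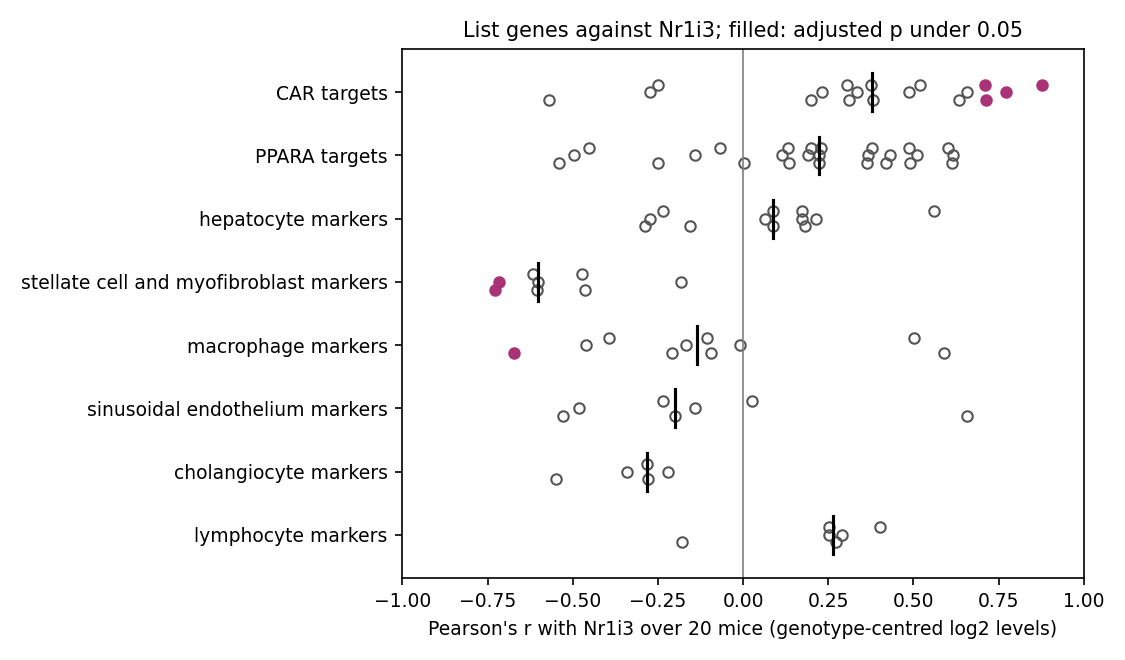
Pearson's r of each list gene with Nr1i3 over 20 livers, from genotype-centred log2 levels, 1 point per gene and 1 line of points per list; filled points passed an adjusted p of 0.05 and the black bar is the list's median. CAR targets lie mostly to the right (median 0.38) and stellate cell and myofibroblast markers all to the left (median -0.60), with hepatocyte markers around 0 (median 0.09).

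Markers of matrix-producing cells tended to be low where Nr1i3 and Ppara were high. All 8 stellate cell and myofibroblast markers had a negative r with Nr1i3, with a median of -0.60 against 0.02 over all genes. Called were 2 of the 8, against 0.83% of all genes, namely Pdgfrb, the PDGF receptor of these cells (-0.73, limma adjusted p = 0.029), and Col3a1, a fibrillar collagen (-0.72, 0.0216). Col1a2, Acta2 and Col1a1 had r of -0.62, -0.60 and -0.60 and did not pass (0.0779, 0.0906 and 0.0886). Leaving out heterozygous replicate 10 removed both calls, and leaving out heterozygous replicate 3 or 7 or WT replicate 4 left 1. With Ppara the median was -0.52 and 0 of 8 were called. With the remaining factors the medians ran from -0.37 for Nr1h4 to 0.41 for Foxa3. Since levels were centred within genotype, these values do not rest on the lower marker level of heterozygous mice.

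Of 10 macrophage markers, Trem2, a receptor of lipid-associated macrophages, fell with Nr1i3 (-0.67, limma adjusted p = 0.0366). Timd4 and Marco, of resident Kupffer cells, had r of 0.59 and 0.50 without a call (0.0929 and 0.21), the only 2 positive values. All 8 others, with Clec4f, Cd5l and Vsig4 of Kupffer cells among them, had a negative r. The list's median was -0.14 with Nr1i3 and -0.37 with Hnf4a. Hepatocyte markers had a median r of 0.09 with Nr1i3 and -0.03 with Ppara, with 0 of 12 called, although 5 of them, 2 at the upper limit of the table, had an SD under 0.05 on the log2 scale in both genotypes and could hardly vary. The 7 markers of sinusoidal endothelium, 5 of cholangiocytes, 6 of lymphocytes and 4 of exocrine pancreas had medians of -0.20, -0.28, 0.26 and -0.13 with Nr1i3, with 0 called, and none of the endothelial, cholangiocyte or pancreatic markers was called between genotypes at an unadjusted p of 0.05. What part the share of other cells has in the variation of Nr1i3 and Ppara was not tested.

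Properties of the arrays also moved with some of the factors. The interquartile range of an array's values, from 3.76 to 4.25 log2 units, correlated over the 20 arrays with Foxa1 (r = 0.64), Nr5a2 (0.57) and Foxa3 (0.51), and with Hnf4a (0.44), with permutation p of 0.00882, 0.0084, 0.025 and 0.0513. The array median correlated with Nr5a2 (-0.61), Hnf4a (-0.61), Foxa3 (-0.53) and Foxa1 (-0.51), with permutation p of 0.0053, 0.00716, 0.0162 and 0.0278. With Ppara, Nr1h4 and Nr1i3 the interquartile range had r of -0.27 each, and the array median 0.08, 0.21 and 0.06. The 4 arrays of smallest interquartile range (3.76 to 3.99) were those of WT replicates 6 and 4 and heterozygous replicates 9 and 10. Counted from the lowest of 20 livers, these ranked 16 to 20 for Ppara and 13 to 20 for Nr1i3. The first principal component of all genes, which held 16.0% of the variance within genotypes, correlated with Nr1i3 (0.58), Ppara (0.56), Foxa1 (-0.60) and Foxa3 (-0.54), its sign being arbitrary. With that component as a term the pair of Ppara and Nr1i3 was still called, and 1 gene in place of 0 passed between genotypes, but the genes following Ppara and Nr1i3 numbered 103 and 101. The part of array quality in these values was not tested.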

How the data were processed

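Liver RNA of 20 mice was labelled and hybridised to MoGene 2.0 ST arrays. Per the methods and labels, the authors summarised them with Affymetrix Power Tools by GC correction, intensity scaling and robust multi-array averaging of core genes. The values as deposited are log2 levels. The sources used here did not give the tool's version, the genome build or the annotation release. Signal near the upper limit of the table is compressed, background correction could not be varied, and the number of arrays limits the precision.

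Of 41345 probe sets, the 23521 annotated to 1 symbol were used and averaged per symbol, which gave 22180 genes with no filter on dim ones. Groups came from the labels. Genotypes were compared as heterozygous minus WT with limma 3.58.1 (lmFit and eBayes, R 4.3.3), two-sided, with Benjamini-Hochberg adjustment over all genes and a threshold of 0.05. Covariation was fitted with limma for each factor, with genotype and the factor's level as terms, over 22179 other genes. Pearson's r and Spearman's rho were taken on genotype-centred values, with two-sided permutation p from 100000 permutations within genotypes (scipy 1.17.1), and were not adjusted over pairs. Intervals are 95% intervals of the fit.

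The 9 factors and the 16 gene lists (171 of 189 symbols measured) were chosen with earlier results of these data known. Named are the factors, Bnc2, the 3 genes of highest r with each factor at or above the median level, and in each list up to 4 genes of smallest genotype p and up to 4 of highest absolute r with the list's own factor. Genes most opposite to a factor, list genes called with another factor, and marker genes given with r were named after their values were seen. List symbols without a matched value, and 1 further promoter motif, are not reported here. Same-numbered WT and heterozygous mice correlated between -0.17 and 0.17, with 4 of 10 above 0.1, so the numbers were not used as pairs. The alternatives tried are given with their effect below.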

Additional observations from a re-analysis of the deposited data

Results flagged for a closer look

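Foxa1 in WT replicate 6 was 8.286 on the log2 scale and stood apart from the other 9 WT livers, the nearest of which was at 9.13. The gap took up 0.535 of the group's whole range. Of 18 groups looked at in this way (9 factors in both genotypes) it was the only one so far apart, and chance alone marks about 1 group in 20. In the same liver Nr5a2 was next to lowest of all 20, while Ppara and Nr1h4 were above the middle. The array of this liver had the smallest interquartile range (3.76) and the highest median (6.71) of the 20. Over the arrays, Foxa1 correlated with both (r = 0.64 and -0.51). The part of the array in this value was not tested.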

How the results depend on the processing

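No factor passed the adjusted threshold between genotypes in any setting. Over all genes 1 in place of 0 passed with the first principal component as a covariate. The difference turned sign for Cebpa with array weights (0.000) and without 1 mouse (-0.085 to 0.004), for Nr1h4 without the 4 arrays of smallest spread (-0.043) and without 1 mouse (-0.020 to 0.059), and without 1 mouse for Nr1i3 (-0.148 to 0.149) and Nr5a2 (-0.017 to 0.071). Foxa3 had an unadjusted p under 0.05 in 10 settings.

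The pair of Ppara and Nr1i3 was called in every setting except with the replicate number as a block (r = 0.828, limma adjusted p = 0.272), which left 0 pairs called. Only 2 of 10 WT mice correlated best with the heterozygous mouse of their own number. Without 1 mouse 1 to 3 pairs were called. The genes following Ppara numbered 316, and 501 among genes at or above the median level, 103 with the principal component, 42 without the 4 arrays of smallest spread, 0 with the replicate block and 90 to 349 without 1 mouse. For Nr1i3 the 377 became 599, 101, 59, 6 and 112 to 458, and 246 with array weights. CAR targets called with Nr1i3 were 4, then 1 with the component, 1 without the 4 arrays, 0 with the block and 2 to 5 without 1 mouse. Stellate cell and myofibroblast markers called with Nr1i3 were 2, then 1 with array weights, 0 with the component, without the 4 arrays or with the block, and 0 to 3 without 1 mouse. With the block the median r of that list was -0.25 with Nr1i3 and -0.28 with Ppara, and r of Nr1h4 with Nr1i3 was 0.488. The Foxa1 difference was 0.044 and r of Foxa1 with Foxa2 0.688 without the 4 arrays. With the block, 8 of the 36 pairs also changed the sign of r. The block takes up 9 degrees of freedom and leaving out arrays makes the sample smaller. Why the values moved in these settings was not tested. The counts of genes and list genes following a factor were recomputed by a choice made after the data were seen. With 20 arrays, a genotype difference of any size inside the intervals given is still allowed by the values.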
